A study of Homo sapiens with 12 samples.

Results

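The genes described here are 10 genes of the NRF2 antioxidant system: NFE2L2, KEAP1, NQO1, HMOX1, GCLC, GCLM, TXNRD1, SRXN1, TXN and GPX4. They were taken by gene symbol, and each symbol named 1 feature in both deposited count tables, so all 10 were found among the 38997 features that the tables share and the 48283 features in either. All 10 passed the filter on low counts in every comparison. RNA was sequenced from MP38 and 92.1, 2 established human uveal melanoma cell lines, melanoma being the tumour of pigment cells and the uvea the pigmented layer of the eye. Each line was kept for 72 hours with DMSO alone as the solvent control or with VE-822, also called berzosertib, which inhibits ATR, a kinase that acts at stalled replication forks, and each of the 4 groups had 3 libraries. No genotype or allele is given in the labels for either line. The VE-822 concentration is not given in the labels either. It was set separately for each line so that about 40% of the cells were viable at the end, so dose and cell line cannot be told apart. Nothing in the labels states that replicate libraries were grown as separate cultures, so the p-values may reflect only technical spread between these samples.

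NRF2, the protein that NFE2L2 encodes, is a transcription factor that is normally marked for degradation by KEAP1, the substrate adaptor of a CUL3 ubiquitin ligase. Oxidants and electrophiles modify KEAP1, NRF2 then accumulates, pairs with a small MAF protein and binds antioxidant response elements near its target genes. Its targets feed the glutathione and thioredoxin systems, which share NADPH as their source of electrons, and pigment cells are exposed to oxidants from melanin synthesis. Because NRF2 is controlled mainly through its stability, the level of NFE2L2 RNA is not a measure of NRF2 activity.

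In RefSeq (GRCh38.p14), 9 of the 10 members had a promoter window of 250 bases before to 50 bases after a transcription start, 14 windows in all; HMOX1 was not matched. These windows were searched on both strands for TGACNNNGC, the core of the antioxidant response element and the one motif searched. It occurred in 4 of the 14 windows, against 13.3% of all 35116 windows. The windows with a match belong to 3 of the 9 members with a window, where 16.1% of 27305 genes had a match in any window. Of these 3, KEAP1 and GCLM did not pass the test in MP38, while TXNRD1 had the highest fold change of the 10 there. The 4 windows are printed from 150 bases before the start to the start itself, 5′ to 3′ on the gene's strand, with the matches in capitals. The TXNRD1 stretches lie on the plus strand at chr12:104215629-104215779 and chr12:104286882-104287032, the GCLM stretch on the minus strand at chr1:93909430-93909580, and the KEAP1 stretch on the minus strand at chr19:10502771-10502921. A match is a description of the letters, and a window without one says nothing of what lies outside it.
TXNRD1, first start: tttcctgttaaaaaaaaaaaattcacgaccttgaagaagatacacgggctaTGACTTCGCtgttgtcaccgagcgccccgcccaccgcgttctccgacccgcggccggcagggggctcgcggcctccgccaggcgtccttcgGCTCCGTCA
TXNRD1, other start: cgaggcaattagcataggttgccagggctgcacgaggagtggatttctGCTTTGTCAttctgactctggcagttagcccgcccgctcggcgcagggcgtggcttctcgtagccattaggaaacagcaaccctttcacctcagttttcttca
GCLM: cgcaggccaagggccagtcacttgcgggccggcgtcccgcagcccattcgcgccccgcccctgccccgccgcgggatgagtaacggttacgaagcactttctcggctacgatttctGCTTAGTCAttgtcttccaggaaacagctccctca
KEAP1: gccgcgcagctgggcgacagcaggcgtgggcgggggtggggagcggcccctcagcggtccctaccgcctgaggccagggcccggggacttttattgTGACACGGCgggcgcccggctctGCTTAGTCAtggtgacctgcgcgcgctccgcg
The GCLM and KEAP1 stretches hold the same 9 letters, GCTTAGTCA, which is the motif on the other strand, at 34 and 31 bases before the start.

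The MP38 libraries held 54415628 to 63638976 counts each, and those of 92.1 held 112374503 to 137664800. All 7 melanocyte markers (PMEL, MLANA, TYR, TYRP1, DCT, MITF and SOX10) reached 1 CPM in every group (CPM being counts scaled by library total for markers and pseudogenes, and by total and TMM factors elsewhere), and none of the 7 leukocyte markers did. The summed level of the 7 fibroblast markers was 0.613 to 0.901 CPM in DMSO and 1.61 to 2.27 CPM in VE-822 in MP38, and 2.68 to 3.80 and 5.57 to 6.27 CPM in 92.1. That of the leukocyte markers was 0.911 to 1.10 and 1.36 to 1.61 CPM in MP38, and 0.668 to 0.833 and 1.39 to 1.83 CPM in 92.1. Both sums were higher in VE-822 in both lines. Single markers of a list differed widely. DCN was at 0 in the DMSO groups of both lines, and RPE65 and CDH5 were at 0 in 92.1 DMSO. In 92.1 DMSO the fibroblast marker COL1A1 had a mean of 2.71 CPM, and BEST1, of the same list as RPE65, 39.4 CPM. In MP38 DMSO the means were 254 CPM for BEST1 and 43.4 CPM for RLBP1, both retinal pigment epithelium markers. The epithelial markers KRT18 and KRT8 were at 48.4 and 15.3 CPM there. The 5 retinal pigment epithelium markers summed to 286 to 308 CPM in DMSO and 307 to 338 CPM in VE-822 in MP38, and to 35.3 to 61.9 and 44.1 to 44.9 CPM in 92.1. The 7 markers of epithelium and endothelium summed to 59.4 to 72.5 and 54.9 to 56.4 CPM in MP38, and to 1.12 to 2.14 and 2.75 to 3.25 CPM in 92.1. The part of these markers in the results was not tested. The 92.1 DMSO replicate 3 library stood apart, with a root-mean-square log2 difference of 0.283 from each of the other DMSO libraries of its line, against 0.0650 to 0.118 for all other pairs within a group. For the members its level ranged from 0.887 times the mean of replicates 1 and 2 for TXN to 1.28 times for NFE2L2, so the tested results of 92.1 are given with and without it.

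In MP38, 5 of the 10 members rose with VE-822: TXNRD1, which keeps thioredoxin reduced, NFE2L2 itself, TXN (thioredoxin), GPX4, the lipid peroxide reductase, and NQO1, the quinone reductase. GCLC, the catalytic subunit of the enzyme that begins glutathione synthesis, fell, and KEAP1, HMOX1, GCLM and SRXN1 did not pass the test. The increases were small, from 1.14-fold for NQO1 to 1.49-fold for TXNRD1. By edgeR's quasi-likelihood test with Benjamini-Hochberg adjustment over 21415 genes, a call being an adjusted p under 0.05, 26.9% of all genes tested were called higher and 25.4% lower in MP38. The members' median log2 fold change was 0.15, against -0.01 over all genes tested. In bulk RNA, fewer cells of a type and less RNA per cell cannot be told apart. In 92.1 the same comparison gave 1 member higher, HMOX1, and 5 lower, NFE2L2, KEAP1, TXNRD1, TXN and GPX4, where 20.3% of 22943 genes were called higher and 19.6% lower. The members' median was -0.16, against 0.03 over all genes. Without 92.1 DMSO replicate 3, 1 member was called higher and 7 lower, against 26.8% and 29% of all genes. NQO1 and GCLC were then called lower as well. Over 14 alternatives (other scaling, tests or filters, or a library left out), the 92.1 calls of HMOX1 and GPX4 held in all. Those of NFE2L2, KEAP1, TXNRD1 and TXN were lost in 5, 11, 6 and 8 of the 14.

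**Figure D1:**
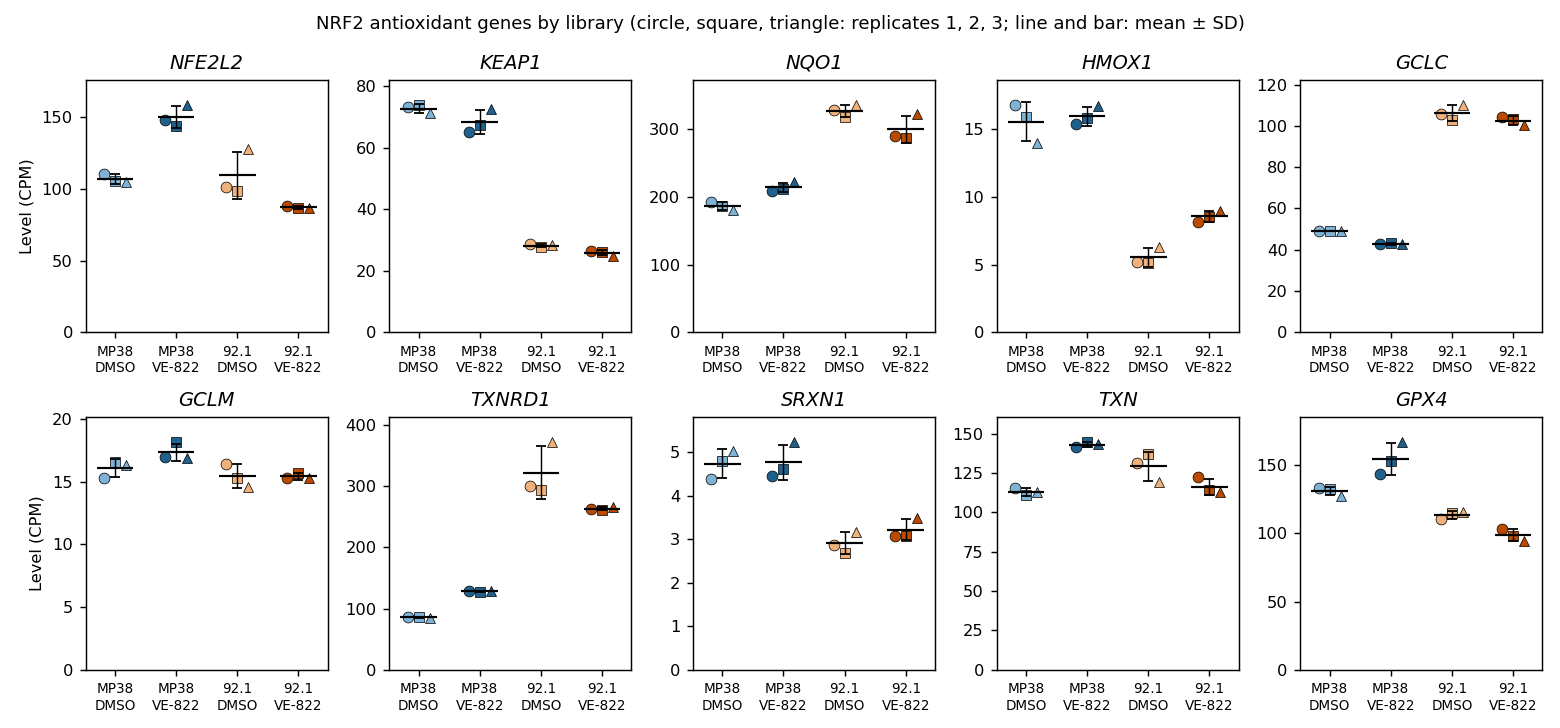
Level of each member in CPM (vertical axes, starting at 0) in the 12 libraries, by line and treatment; circles, squares and triangles are replicates 1, 2 and 3, lines the group means and bars the SD over n = 3. The VE-822 libraries of MP38 lie above its DMSO libraries for TXNRD1, NFE2L2 and TXN, and 92.1 DMSO replicate 3 is the highest point of its group for NFE2L2 and TXNRD1.

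NFE2L2 (ENSG00000116044.16, chr2:177227595-177392697, GRCh38.p13 as in the deposited tables) was at 111, 106 and 105 CPM in the DMSO libraries of MP38 and at 148, 144 and 158 CPM in its VE-822 libraries. The groups did not overlap, and the rise was 1.40-fold (log2 0.48 ± 0.0417 SE, adjusted p = 5.4184e-09, edgeR). In 92.1 it was at 101, 98.8 and 128 CPM in DMSO and at 88.1, 86.4 and 86.9 CPM in VE-822. All treated libraries lay below all controls there, by a log2 change of -0.37 ± 0.0940 SE with all libraries (adjusted p = 0.0141, edgeR) and -0.27 ± 0.0302 SE without DMSO replicate 3 (adjusted p = 5.9681e-07). The adjusted p for 92.1 ranged from 5.9681e-07 to 0.132 over 14 alternatives, and the call was lost in 5 of them, among them without VE-822 replicate 2 and without VE-822 replicate 3. The gene for NRF2 was therefore called in opposite directions in the 2 lines.

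KEAP1 (ENSG00000079999.14, chr19:10486125-10503558), the sensor that holds NRF2 down, was at 73.1, 73.9 and 71.2 CPM in MP38 DMSO and at 65.0, 67.3 and 72.8 CPM in VE-822. The groups overlapped, and the log2 difference of -0.10 ± 0.0431 SE did not pass the test (adjusted p = 0.0614, edgeR). It was called lower in 6 of 14 alternatives, among them library size only, the FPKM fits and without DMSO replicate 3 or VE-822 replicate 3, with adjusted p-values from 0.00250 to 0.305 over the 14. The 92.1 libraries were at 28.7, 27.6 and 28.4 CPM in DMSO and at 26.5, 26.1 and 24.9 CPM in VE-822, without overlap. It fell by 0.17 ± 0.0546 SE on the log2 scale (adjusted p = 0.0397, edgeR) and by 0.19 ± 0.0418 SE without DMSO replicate 3 (adjusted p = 0.000834). This call was the least stable of the members. It was lost in 11 of 14 alternatives, including each of the 5 that left out a library other than DMSO replicate 3. Over all 14 the adjusted p ranged from 0.000834 to 0.185.

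NQO1 (ENSG00000181019.13, chr16:69706996-69726668), a cytosolic enzyme that reduces quinones and a standard readout of NRF2, was at 192, 186 and 181 CPM in MP38 DMSO and at 209, 211 and 221 CPM in VE-822. It rose 1.14-fold (log2 0.19 ± 0.0389 SE, adjusted p = 0.000327, edgeR), and the lowest treated library lay above the highest control. In 92.1 its level was 328, 318 and 335 CPM in DMSO and 289, 287 and 323 CPM in VE-822. VE-822 replicate 3 lay inside the control range, the log2 difference was -0.16 ± 0.0596 SE and the test was missed with all libraries (adjusted p = 0.0568, edgeR). Without DMSO replicate 3 it was called lower at -0.17 ± 0.0450 SE (adjusted p = 0.00326, within a range of 0.00326 to 0.406 over 14 alternatives), and without VE-822 replicate 3 it was called as well. With all libraries kept it was called with RLE factors, with DESeq2, with no filter on low counts and with the replicate block. That made 6 of the 14 alternatives with a call.

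HMOX1 (ENSG00000100292.18, chr22:35380361-35394214), haem oxygenase 1, which breaks haem down to biliverdin, iron and carbon monoxide, was the one member called higher in 92.1. In MP38 it was at 16.8, 15.9 and 14.0 CPM in DMSO and at 15.4, 15.8 and 16.7 CPM in VE-822, 2 overlapping groups with a log2 difference of 0.03 ± 0.0652 SE (adjusted p = 0.733, edgeR). The 92.1 levels were 5.20, 5.10 and 6.32 CPM in DMSO and 8.13, 8.55 and 9.0 CPM in VE-822. It rose there 1.5-fold (log2 0.59 ± 0.102 SE, adjusted p = 0.00210, edgeR), and 1.59-fold without DMSO replicate 3, its highest control (log2 0.67 ± 0.0723 SE, adjusted p = 3.2462e-07). The call held in all 14 alternatives, with an adjusted p of 0.0155 at most.

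GCLC and GCLM are the catalytic and the modifier subunit of glutamate-cysteine ligase, the enzyme that begins glutathione synthesis, and they did not move as a pair. GCLC (ENSG00000001084.13, chr6:53497341-53616970) was at 49.0, 49.2 and 49.2 CPM in MP38 DMSO and at 42.6, 43.4 and 42.8 CPM in VE-822. It fell by 0.20 ± 0.0383 SE on the log2 scale (adjusted p = 0.000137, edgeR), the one decrease among the members called in MP38, with no overlap. GCLM (ENSG00000023909.10, chr1:93885199-93909456) was at 15.3, 16.6 and 16.4 CPM in DMSO and at 17.0, 18.1 and 16.9 CPM in VE-822. These groups did not overlap either, but the log2 difference of 0.10 ± 0.0551 SE did not pass the test (adjusted p = 0.134, edgeR).

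In 92.1 GCLC was at 106, 103 and 110 CPM in DMSO and at 104, 103 and 100 CPM in VE-822. The groups overlapped, with a log2 difference of -0.09 ± 0.0474 SE (adjusted p = 0.171, edgeR), and a call appeared without DMSO replicate 3 at -0.09 ± 0.0302 SE (adjusted p = 0.0182, within 0.0182 to 0.976 over 14 alternatives). GCLM was at 16.4, 15.3 and 14.6 CPM in DMSO and at 15.3, 15.7 and 15.3 CPM in VE-822. Its groups overlapped, and the log2 difference was -0.04 ± 0.0649 SE with all libraries (adjusted p = 0.647, edgeR). Without DMSO replicate 3 it was -0.11 ± 0.0508 SE, also not called (adjusted p = 0.0810, within 0.0810 to 0.860 over 14 alternatives).

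GPX4 (ENSG00000167468.18, chr19:1103926-1106791), the selenoprotein that uses glutathione to reduce lipid peroxides and so opposes ferroptosis, was at 133, 133 and 128 CPM in MP38 DMSO and at 143, 153 and 167 CPM in VE-822. It rose 1.17-fold (log2 0.23 ± 0.0466 SE, adjusted p = 0.000373, edgeR), without overlap. In 92.1 it was at 110, 115 and 116 CPM in DMSO and at 103, 97.9 and 94.6 CPM in VE-822, again without overlap and in the other direction. The fall was 0.24 ± 0.0490 SE on the log2 scale (adjusted p = 0.00456, edgeR) and 0.26 ± 0.0334 SE without DMSO replicate 3 (adjusted p = 3.1171e-06). It was called in all 14 alternatives, with an adjusted p of 0.0305 at most.

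TXN (ENSG00000136810.13, chr9:110243810-110256507) encodes thioredoxin, the small protein that reduces disulfides in other proteins. It was at 116, 111 and 113 CPM in MP38 DMSO and at 141, 144 and 143 CPM in VE-822. The rise was 1.26-fold (log2 0.33 ± 0.0359 SE, adjusted p = 1.3988e-07, edgeR), with a gap between the groups wider than either group's spread. In 92.1 TXN was at 131, 137 and 119 CPM in DMSO and at 122, 114 and 113 CPM in VE-822. DMSO replicate 3 reached into the treated range, so the groups overlapped. With it the fall was 0.19 ± 0.0601 SE on the log2 scale (adjusted p = 0.0355, edgeR) and without it 0.27 ± 0.0334 SE (adjusted p = 1.6306e-06). The call was lost in 8 of 14 alternatives, among them without DMSO replicate 1, DMSO replicate 2, VE-822 replicate 2 or VE-822 replicate 3. Over all 14 the adjusted p ranged from 1.6306e-06 to 0.254. The pseudogenes of TXN listed as features of their own reached at most 1.10 CPM (TXNP1).

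TXNRD1 (ENSG00000198431.16, chr12:104215779-104350307), the selenoprotein that passes electrons from NADPH to thioredoxin, had the highest fold change of the members in MP38. It was at 85.8, 85.7 and 85.0 CPM in DMSO and at 128, 128 and 129 CPM in VE-822, a rise of 1.49-fold (log2 0.58 ± 0.0353 SE, adjusted p = 2.6129e-11, edgeR). The 92.1 libraries had it at 300.1, 294 and 372 CPM in DMSO and at 264, 261 and 266 CPM in VE-822. All treated libraries were below all controls, and DMSO replicate 3 was the highest control. It fell by 0.33 ± 0.0879 SE on the log2 scale (adjusted p = 0.0171, edgeR) and, without DMSO replicate 3, by 0.24 ± 0.0295 SE (adjusted p = 1.6800e-06). The call was lost in 6 of 14 alternatives, among them without each VE-822 library in turn. Over all 14 the adjusted p ranged from 1.6800e-06 to 0.153. RPL18AP3, a processed pseudogene inside its span, was counted at 13.7% of the level of TXNRD1 in MP38 and 2.60% in 92.1. Whether counting used strand is not given in the sources used here, so values of overlapping features are uncertain, and every other feature overlapping a member was below 2.5% of that member's level.

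SRXN1 (ENSG00000271303.2, chr20:646615-653200), sulfiredoxin, which restores over-oxidised peroxiredoxins, had the lowest level per length of the members. It was at 4.39, 4.79 and 5.03 CPM in MP38 DMSO and at 4.46, 4.62 and 5.22 CPM in VE-822, overlapping groups with a log2 difference of -0.00023 ± 0.0956 SE (adjusted p = 0.999, edgeR). Levels in 92.1 were 2.88, 2.68 and 3.17 CPM in DMSO and 3.08, 3.08 and 3.49 CPM in VE-822. These overlapped too, with a log2 difference of 0.11 ± 0.109 SE (adjusted p = 0.481, edgeR) and of 0.14 ± 0.101 SE without DMSO replicate 3 (adjusted p = 0.246, within 0.245 to 0.840 over 13 alternatives). The SRXN1 counts, 257 to 397 per library, gave the widest errors of the members in both lines.

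Counted by library ranges alone, 6 members were wholly higher and 1 wholly lower with VE-822 in MP38, where 30.6% and 28.3% of 21182 features in both tables were so. In 92.1, 1 was wholly higher and 4 were wholly lower, where 30.9% and 21.9% of 22681 features were. All 6 members called in MP38 kept their direction and their call in all 14 alternatives.

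**Figure D2:**
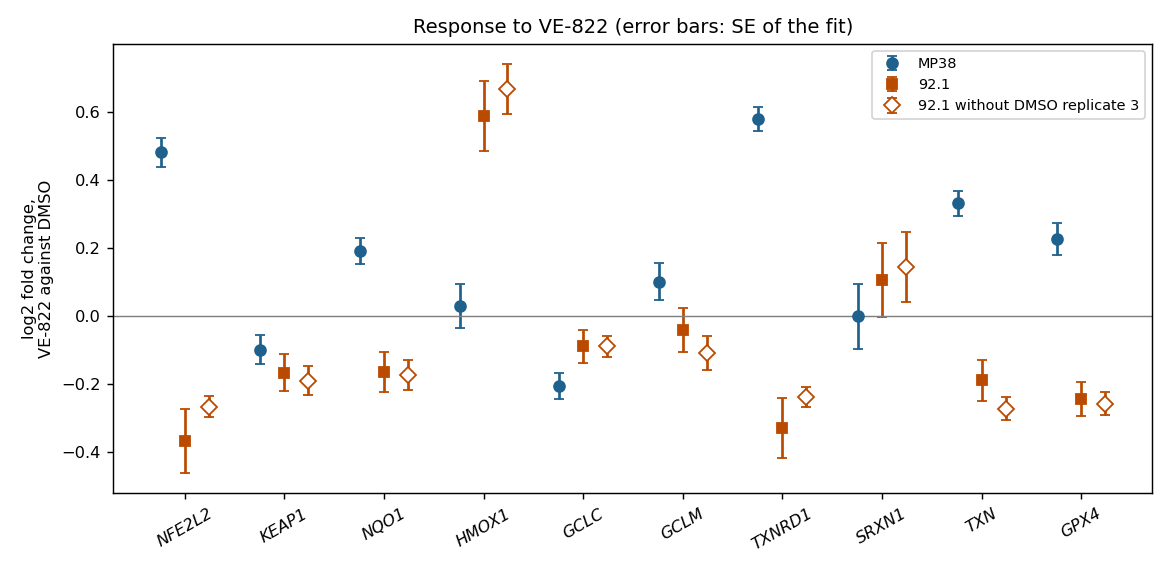
Log2 fold change of VE-822 against DMSO for each member (vertical axis) in MP38 (circles), in 92.1 (filled squares) and in 92.1 without DMSO replicate 3 (open diamonds), with the SE of the fit as bars. NFE2L2, NQO1, TXNRD1, TXN and GPX4 lie above 0 in MP38 and below 0 in 92.1, HMOX1 is at 0.59 in 92.1 and 0.03 in MP38, and the open diamonds keep the sign of the squares for all 10.

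The difference in response, that of 92.1 minus that of MP38, was tested in 1 fit of all 12 libraries. It was called for 6 members, lower in 92.1 for 5 and higher for 1, where 18.8% of 24958 genes were called lower and 22.1% higher. The median over the members was -0.22, against 0.11 over all genes. TXNRD1 differed by -0.88 ± 0.0958 SE (adjusted p = 2.2889e-06), NFE2L2 by -0.82 ± 0.108 SE (adjusted p = 1.6558e-05) and TXN by -0.49 ± 0.0748 SE on the log2 scale (adjusted p = 7.0864e-05, edgeR). These are the transcription factor, thioredoxin and its reductase. GPX4 differed by -0.44 ± 0.0775 SE (adjusted p = 0.000276) and NQO1 by -0.33 ± 0.0720 SE (adjusted p = 0.00181, edgeR). HMOX1 was the member with a higher response in 92.1, by 0.59 ± 0.127 SE (adjusted p = 0.00153, edgeR). Without 92.1 DMSO replicate 3 the values were -0.80 for TXNRD1, -0.73 for NFE2L2, -0.59 for TXN, -0.47 for GPX4, -0.35 for NQO1 and 0.65 for HMOX1. These 6 kept their direction and call in all 20 alternatives.

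For the other 4 members no difference in response was called. The log2 values were 0.14 ± 0.0592 SE for GCLC (adjusted p = 0.0634, edgeR), -0.11 ± 0.0879 SE for GCLM, 0.13 ± 0.146 SE for SRXN1 and -0.04 ± 0.0700 SE for KEAP1. GCLC was called higher (0.13, adjusted p = 0.0397) and GCLM lower (-0.20, adjusted p = 0.0393) without 92.1 DMSO replicate 3, which gave 2 members higher and 6 lower against 24.3% and 24.8% of all genes. SRXN1 (0.16) and KEAP1 (-0.08) were not called there. Over 20 alternatives the adjusted p ranged from 0.000752 to 0.329 for GCLC and from 0.0393 to 0.935 for GCLM.

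The untreated lines differed by up to 1.90 on the log2 scale in these genes, where the largest change with treatment in a line was 0.59 with all libraries. In the DMSO libraries NQO1, GCLC, TXNRD1 and TXN were higher in 92.1, and KEAP1, HMOX1, SRXN1 and GPX4 were lower. That is 4 members called in each direction, where 38.9% of 22856 genes were called higher and 41% lower in 92.1. With so large a share of all genes called, a call for a member is close to the background, and the sizes carry the description. The line and its count table cannot be told apart in this comparison. It uses the DMSO libraries that also serve as controls above, so the values are given side by side only.

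TXNRD1 had the largest positive difference, 322 ± 43.3 CPM (SD, n = 3) in 92.1 against 85.5 ± 0.449 CPM in MP38, or 3.74-fold (log2 1.90 ± 0.0889 SE, adjusted p = 7.4986e-08, edgeR). GCLC was 2.14-fold higher at 106 ± 3.74 CPM against 49.1 ± 0.0714 CPM (log2 1.10 ± 0.0482 SE, adjusted p = 4.8902e-08). NQO1 was 1.74-fold higher at 327 ± 8.76 CPM against 186 ± 5.69 CPM (log2 0.80 ± 0.0488 SE, adjusted p = 4.3820e-07, edgeR). Without 92.1 DMSO replicate 3 the log2 values were 1.81 for TXNRD1, 1.10 for GCLC and 0.81 for NQO1. For all 3 genes the lowest 92.1 library lay above the highest MP38 library. By library ranges, 4 members were wholly higher and 4 wholly lower in 92.1, as were 40.4% and 42.1% of all genes tested.

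HMOX1 had the largest negative difference, 5.54 ± 0.678 CPM in 92.1 against 15.6 ± 1.45 CPM in MP38, a log2 value of -1.50 ± 0.110 SE (adjusted p = 1.5682e-06, edgeR). KEAP1 followed, at 28.2 ± 0.582 CPM against 72.8 ± 1.39 CPM (log2 -1.38 ± 0.0488 SE, adjusted p = 1.2785e-08). SRXN1 was lower in 92.1 by 0.71 ± 0.112 SE on the log2 scale (adjusted p = 0.000292) and GPX4 by 0.22 ± 0.0477 SE (adjusted p = 0.00234, edgeR). When 92.1 DMSO replicate 3 was left out the values were -1.58 for HMOX1, -1.36 for KEAP1, -0.76 for SRXN1 and -0.21 for GPX4, all called.

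NFE2L2 itself was at 109 ± 16.1 CPM in untreated 92.1 and 107 ± 3.18 CPM in untreated MP38, a log2 difference of 0.02 ± 0.0934 SE (adjusted p = 0.846, edgeR). Without 92.1 DMSO replicate 3 the sign turned, to -0.08 ± 0.0338 SE, and the gene was called lower (adjusted p = 0.0334, within 0.0334 to 0.912 over 14 alternatives). GCLM was not called, at -0.07 ± 0.0726 SE (adjusted p = 0.394, edgeR) and -0.01 without 92.1 DMSO replicate 3. It was called lower in 4 of 14 alternatives, with library size only (log2 -0.28, adjusted p = 0.00632), the 5 CPM minimum and both FPKM fits, within 0.00632 to 0.935 over the 14. TXN was called higher at 0.18 ± 0.0617 SE (adjusted p = 0.0231, edgeR) and at 0.26 without 92.1 DMSO replicate 3, but its sign turned to about -0.03, without a call, when libraries were scaled by total count alone or when FPKM were used. Scaling by total count moved the median over all genes from -0.03 to -0.24 in this comparison. The TXN call was also lost without MP38 DMSO replicate 2 (92.1 DMSO replicate 2 likewise). Leaving out 92.1 DMSO replicate 3 gave 4 members higher and 5 lower, against 41.4% and 43.9% of all genes.

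**Figure D3:**
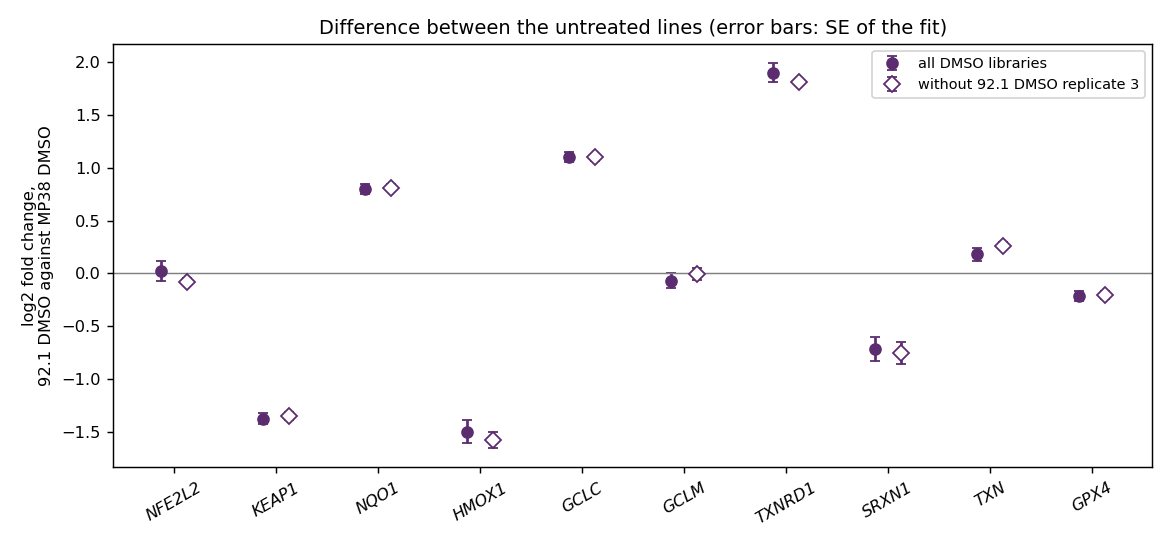
Log2 fold change of untreated 92.1 against untreated MP38 for each member (vertical axis), with all DMSO libraries (circles) and without 92.1 DMSO replicate 3 (open diamonds); bars are the SE of the fit. TXNRD1 (1.90), GCLC (1.10) and NQO1 (0.80) lie above 0, HMOX1 (-1.50), KEAP1 (-1.38) and SRXN1 (-0.71) below, and NFE2L2 and GCLM near 0.

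Levels of different genes are compared per length, in FPKM (fragments scaled by feature length and library total) as the authors deposited them. In untreated MP38, TXN was the highest at 121 ± 2.20 FPKM (SD, n = 3), followed by GPX4 at 70.2 ± 1.78 and NQO1 at 67.6 ± 2.04 FPKM, whose libraries overlapped. KEAP1 (22.0 ± 0.507 FPKM) and NFE2L2 (20.4 ± 0.565 FPKM) came next, then TXNRD1 at 13.8 ± 0.118 FPKM. HMOX1 (7.29 ± 0.684 FPKM), GCLC (6.16 ± 0.0400 FPKM), GCLM (3.20 ± 0.153 FPKM) and SRXN1 (2.02 ± 0.142 FPKM) were the lowest, and none of these 4 overlapped its neighbour.

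Between TXN at the top and SRXN1 at the bottom, the order in untreated 92.1 was different. TXN (119 ± 8.26 FPKM) and NQO1 (102 ± 2.91 FPKM) led, then GPX4 at 52.3 ± 1.36 FPKM and TXNRD1 at 44.6 ± 6.09 FPKM, which overlapped through DMSO replicate 3. NFE2L2 was at 17.9 ± 2.67 FPKM, GCLC at 11.4 ± 0.423 FPKM and KEAP1 at 7.34 ± 0.157 FPKM. GCLM (2.64 ± 0.155 FPKM) and HMOX1 (2.23 ± 0.278 FPKM) overlapped, and SRXN1 was last at 1.07 ± 0.0922 FPKM. Without DMSO replicate 3 the order of the means was the same, with GPX4 at 51.7 and TXNRD1 at 41.1 FPKM, and neither of these pairs overlapped. The subunit pair thus stood at 6.16 and 3.20 FPKM in MP38 and at 11.4 and 2.64 FPKM in 92.1, so that GCLC and GCLM were further apart in 92.1.

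**Figure D4:**
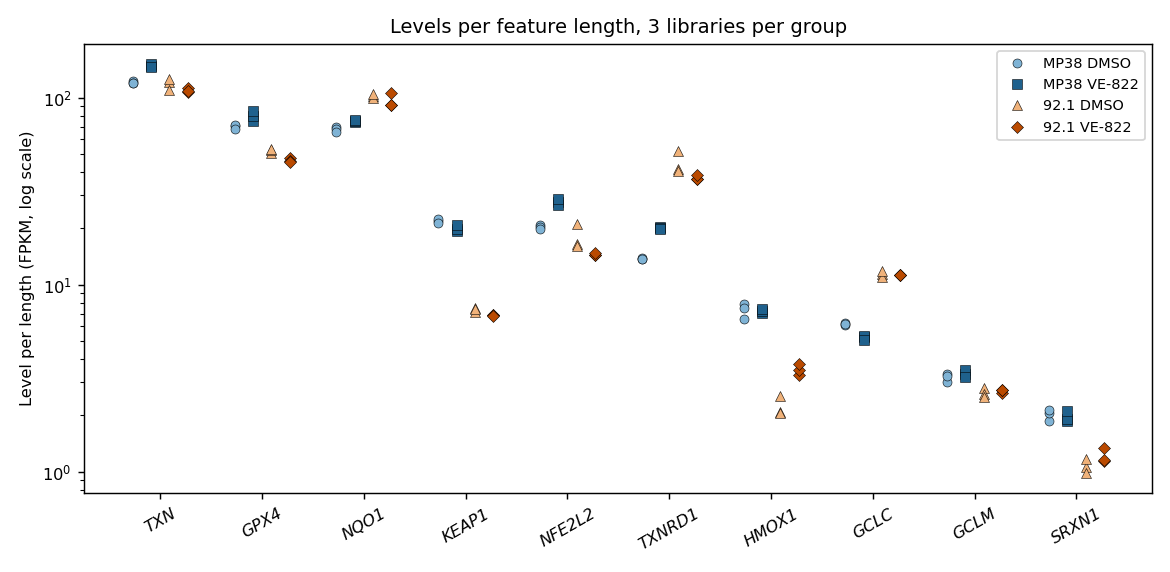
Deposited FPKM of each member (vertical axis, log scale) in the 12 libraries, 4 symbols for the 4 groups. TXN lies at the top and SRXN1 at the bottom in every group, KEAP1 has a mean of 22.0 FPKM in MP38 DMSO and 7.34 FPKM in 92.1 DMSO, and TXNRD1 is higher in 92.1 in both treatments.

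For 3 members the protein-coding genes with the closest pattern over the 12 libraries were looked up, by the root-mean-square difference of centred log2(CPM + 1) values, over genes whose mean reached 5 CPM. For NQO1 these were ADIPOR1 (0.0526), NECAP1 (0.0545) and CHTOP (0.0547). For HMOX1 they were TLCD2 (0.101), INPP5K (0.102) and STKLD1 (0.105), and for SRXN1 NPRL3 (0.0666), METAP1D (0.0671) and TEX264 (0.0673). TLCD2, for example, was at 25.1 and 25.5 CPM in MP38 DMSO and VE-822 and at 8.33 and 13.6 CPM in 92.1, the same outline as HMOX1. None of the 9 is another member.

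The wider antioxidant network was described with 8 lists of 110 genes in all. In MP38, 53 of the 100 genes tested were called higher, against 26.9% of all genes, and 28 were called lower, close to the 25.4% of all genes. Their median log2 fold change was 0.16, against -0.01 over all genes. In 92.1, 21 of 103 were called higher and 28 lower, with a median of -0.04 against 0.03, where 20.3% and 19.6% of all genes were called, so the number higher was at the background. Without DMSO replicate 3 these were 29 higher and 39 lower, against 26.8% and 29%. The difference in response was called higher for 22 of 104 genes, close to the 22.1% of all genes, and lower for 40, against 18.8%. Leaving out 92.1 DMSO replicate 3, it was called for 26 and 51 of 102, against 24.3% and 24.8%. Between the untreated lines 47 of 102 were higher in 92.1 and 40 lower, where 38.9% and 41% of all genes were, and 51 and 44 without 92.1 DMSO replicate 3, where 41.4% and 43.9% were. The counts of each list below stand beside these same shares of all genes.

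In the mixed list of NRF2 partners, relatives and turnover factors, 9 of 14 genes rose in MP38 and 4 fell. MAFF, a small MAF protein, went from 41.4, 42.9 and 38.2 CPM in DMSO to 78.8, 78.7 and 88.8 CPM in VE-822 (log2 1.00, adjusted p = 2.0093e-12, edgeR), and MAFK rose by log2 0.60. BACH1, the repressor that competes with NRF2 at HMOX1, rose by log2 0.60 and RBX1, the RING subunit of the CUL3 ligase, by log2 0.87. SQSTM1, which binds KEAP1 in autophagy, and CUL3 rose in MP38 too, by log2 0.62 and 0.26. In 92.1, 2 rose and 2 fell. SQSTM1 (log2 0.41) and MAFF (log2 0.38) rose, while RBX1 (log2 -0.21) and CUL3 (log2 -0.28) fell. Without DMSO replicate 3, 2 rose and 4 fell, with SQSTM1 at 0.38, MAFF at 0.29, RBX1 at -0.25 and CUL3 at -0.39. The CUL3 call was lost in 4 of 14 alternatives, 2 of them without a VE-822 library (replicate 2 or replicate 3), and the log2 value in those 4 lay between -0.28 and -0.17 (adjusted p = 0.0573 to 0.141, edgeR and limma).

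In the glutathione list, 11 of 18 genes tested rose and 3 fell in MP38. MGST3 and GSTO1, both glutathione transferases, rose by log2 0.71 and 0.68 and GLRX2, mitochondrial glutaredoxin, by log2 0.82, while GSTK1 fell (log2 -0.54). In 92.1, 6 of 19 rose and 8 fell, or 6 and 9 without DMSO replicate 3. GSTK1 was among those that rose (log2 0.26, or 0.23 without DMSO replicate 3). SLC7A11, the cystine transporter that supplies glutathione synthesis, was at 150, 149 and 123 CPM in MP38 DMSO and 148, 143 and 133 CPM in VE-822, and did not pass the test (log2 -0.01, adjusted p = 0.944, edgeR). In 92.1 it was at 13.7, 13.6 and 264 CPM in DMSO and at 7.11, 6.65 and 7.42 CPM in VE-822. Its log2 change of -3.83 (adjusted p = 0.0235, edgeR) became -1.02 (adjusted p = 1.2839e-10) without DMSO replicate 3, and the call was lost in 6 of 13 alternatives: without each VE-822 library in turn (adjusted p = 0.0762 to 0.0938), with the replicate block (log2 -2.29, adjusted p = 0.0798) and in both FPKM fits (adjusted p = 0.340 and 0.258, limma).

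In the thioredoxin and peroxiredoxin list, 7 of 13 rose and 3 fell in MP38. PRDX1, a peroxiredoxin that thioredoxin recycles, went from 48.2, 45.2 and 49.1 CPM to 111, 107 and 106 CPM (log2 1.17 ± 0.0400 SE, adjusted p = 3.1183e-15, edgeR), and TXNIP, the inhibitor of thioredoxin, from 15.6, 16.8 and 25.6 CPM to 215, 213 and 216 CPM (log2 3.46). TXN, TXNRD1, TXNIP and PRDX1 all rose there, with TXNIP by far the most. The 3 genes of the list that fell were TXNRD3 (log2 -0.38), PRDX6 (log2 -0.37) and SESN3 (log2 -0.17). TXN2, TXNRD2 and SESN1 were not called in MP38. In 92.1, 2 rose and 5 fell, or 5 and 6 without DMSO replicate 3. TXNIP was at 22.6, 22.5 and 66.2 CPM in DMSO and 13.2, 11.8 and 10.1 CPM in VE-822, a log2 change of -1.71 with all libraries (adjusted p = 0.00866, edgeR) and -1.01 without DMSO replicate 3. The TXNIP call was lost in 3 of 14 alternatives, both FPKM fits and without VE-822 replicate 3 (adjusted p = 0.0508 to 0.103). SESN1, a p53-responsive sestrin, rose in 92.1 from 28.9, 28.4 and 23.5 CPM to 75.8, 77.4 and 80.5 CPM (log2 1.49, adjusted p = 2.8488e-06, edgeR) and was not called in MP38, where it lay between 4.18 and 5.45 CPM; the difference between the 2 responses was itself called (log2 1.35, adjusted p = 2.7251e-07, edgeR). Without DMSO replicate 3 the SESN1 values were 1.38 in 92.1 and 1.21 for the difference.

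Of the 9 genes of NADPH supply, 8 rose and 1 fell in MP38, and 1 rose and 4 fell among the 8 tested in 92.1 (2 and 6 without DMSO replicate 3). IDH1, cytosolic isocitrate dehydrogenase, rose in MP38 by log2 0.85 and ME1, malic enzyme, by log2 0.39, while PGD of the pentose phosphate pathway fell (log2 -0.24). NNT, the mitochondrial transhydrogenase, fell in 92.1 (log2 -0.60, adjusted p = 3.2824e-05, edgeR, and -0.66 without DMSO replicate 3). MTHFD2 was at 104, 103 and 380 CPM in 92.1 DMSO and 65.8, 67.2 and 62.5 CPM in VE-822, so that its log2 change was -1.63 with all libraries (adjusted p = 0.0218, edgeR) and -0.73 without DMSO replicate 3. The MTHFD2 call was lost in 5 of 14 alternatives, both FPKM fits and without each VE-822 library in turn (adjusted p = 0.0622 to 0.194).

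The other lists moved less evenly. Of 15 NRF2-linked detoxification enzymes and exporters tested in MP38, 4 rose and 7 fell. OSGIN1 rose by log2 1.12 and NQO2, the paralogue of NQO1, by log2 0.66. The largest called fall was that of AKR1C1, from a mean of 4.35 CPM in DMSO to 1.90 CPM in VE-822 (log2 -1.21, adjusted p = 3.7063e-07, edgeR). Its relative AKR1C2 fell as well (log2 -0.997, from 0.469 to 0.235 CPM), while AKR1C3 (log2 -1.09, at 0.188 CPM in DMSO) was not called. UGDH (log2 -0.66) and the exporter ABCC5 (log2 -0.55) also fell. In 92.1, 3 of 16 rose and 4 fell, or 3 and 6 without DMSO replicate 3. The number that rose was near the 20.3% of all genes. AKR1B1, aldose reductase, was at 79.5, 81.2 and 76.1 CPM in DMSO and 40.9, 39.4 and 38.3 CPM in VE-822 (log2 -1.03, adjusted p = 1.6182e-06, edgeR, and -1.09 without DMSO replicate 3). In the haem and iron list, 6 of 9 rose in MP38, among them TFRC, the transferrin receptor (log2 0.86), BLVRB, a biliverdin reductase (log2 0.85), and FTL, ferritin light chain (log2 0.41). HMOX1 was not called in that line, and 2 genes of the list fell, 1 of them SLC48A1, a haem transporter (log2 -0.71). In 92.1, where HMOX1 rose, 2 of 10 rose, and 4 rose and 1 fell without DMSO replicate 3. The 2 were SLC48A1 (log2 0.36, or 0.37 without that library) and BLVRB (log2 0.32, or 0.39). BLVRB lost its call in 5 of 14 alternatives, without each library other than DMSO replicate 3 in turn (adjusted p = 0.0563 to 0.0785, edgeR).

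Of the list for superoxide, peroxide and lipid peroxide removal, 4 of 12 rose and 3 fell in MP38, near the 26.9% and 25.4% of all genes. AIFM2, which like GPX4 limits lipid peroxidation, rose by log2 0.75. ACSL4, counted in this list although it removes no peroxide, rose as well (log2 0.42). In 92.1, 3 of 13 rose and 3 fell, or 4 and 4 without DMSO replicate 3, again near the shares of all genes. GPX8 was among those that fell (log2 -0.64, or -0.41 without DMSO replicate 3), and its call was lost in both FPKM fits and without VE-822 replicate 3 (adjusted p = 0.0691 to 0.127).

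The last list holds 7 factors of selenoprotein synthesis, the route that makes TXNRD1 and GPX4, together with the selenoproteins SELENOI, SELENOW and SELENOH. Of its 10 genes 4 rose and 5 fell in MP38, and 2 rose and 2 fell in 92.1 (3 and 3 without DMSO replicate 3). Of SELENOI, SELENOW and SELENOH, SELENOH rose (log2 0.62) and SELENOW fell (log2 -0.16) in MP38. SELENOW rose in 92.1 (log2 0.41, or 0.33 without DMSO replicate 3). SEPHS2 makes the selenium donor and is itself a selenoprotein. It rose in both lines (log2 0.43 in MP38, and 0.26 in 92.1 or 0.28 without DMSO replicate 3). Its relative SEPHS1 fell in 92.1 (log2 -0.62, or -0.61 without DMSO replicate 3).

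**Figure D5:**
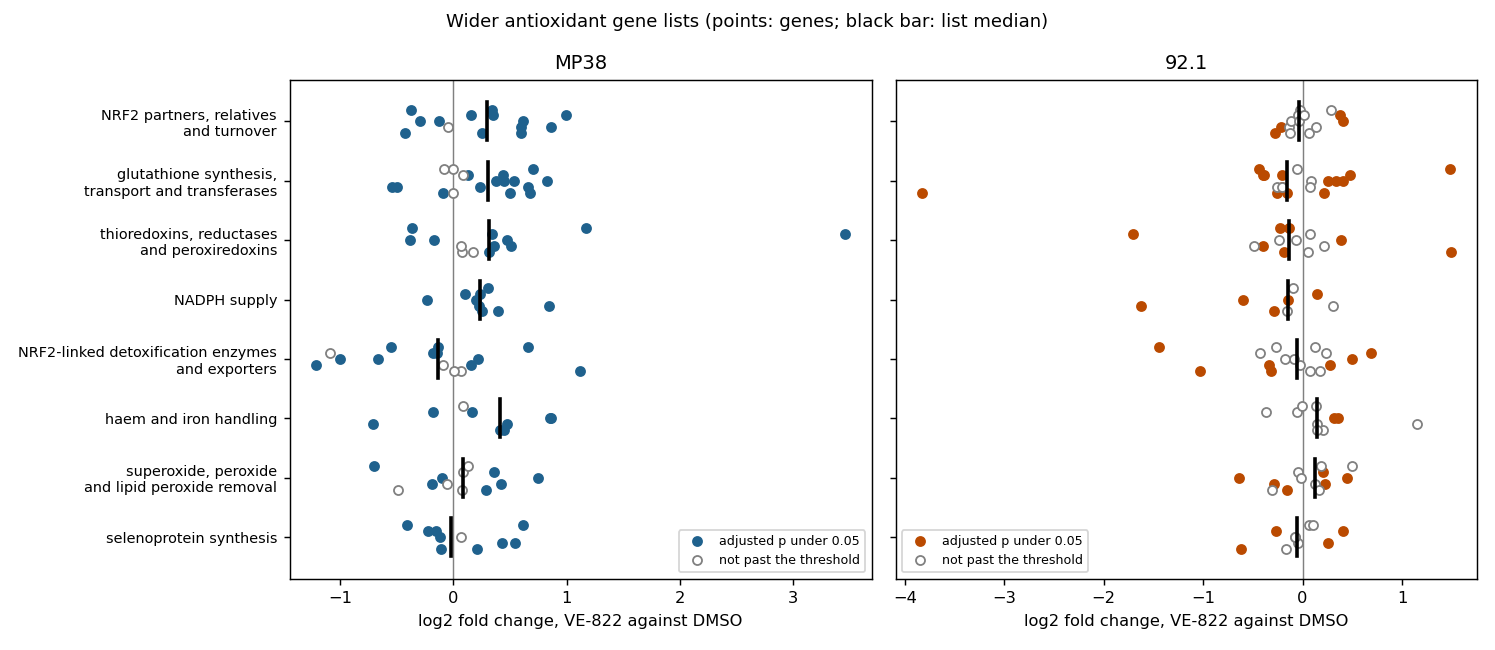
Log2 fold change of VE-822 against DMSO (horizontal axes, each with its own range) for the genes of the 8 lists, in MP38 (left) and 92.1 (right); filled points passed the test, open points did not, and black bars are list medians. In MP38 TXNIP is the point at 3.46, and in 92.1 SLC7A11 is the point at -3.83, which becomes -1.02 without DMSO replicate 3.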

How the data were processed

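Poly(A) RNA of 12 libraries, 3 per line and treatment, was sequenced after NEBNext Ultra II preparation, per the labels' protocols. Per the submitters' processing notes, STAR 2.7.11a, featureCounts 2.0.6, cutadapt 4.8, MultiQC 1.7 and FastQC 0.12.1 were used on GRCh38.p13; their parameters, the annotation release and the strand setting are not given in the sources used here. The authors deposited 1 table of raw counts and 1 table of FPKM values for each line. The FPKM were checked to be the same counts scaled by feature length and library total, within rounding. Each deposited table holds only features with a count in its line, and no feature lacked a name.

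Counts were fitted in R 4.3.3 with edgeR 4.0.16 (filterByExpr with a minimum count of 10 and a minimum total of 15, TMM factors, quasi-likelihood F test), 1 fit for each comparison, with Benjamini-Hochberg adjustment over all genes tested and calls at an adjusted p under 0.05. The SE is the log2 fold change divided by the square root of F. CPM use TMM factors of all 12 libraries, fold changes those of their own fit, and the 2 differ by at most 0.038 in median log2 with all libraries and 0.066 without 92.1 DMSO replicate 3. Total counts per library bound the precision and cover counting error only. The fits were tested on simulated counts with known fold changes and no library that stood apart. Changes as small as most of those of the members with VE-822 were not simulated.

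Alternatives were other scaling, DESeq2 1.42.0, other filters, limma 3.58.1 on log2(FPKM + 1) and log2(FPKM + 0.1), a replicate block and leaving out each library. The wider genes named are up to 4 called genes per list with the smallest adjusted p in a line, plus SLC7A11. The text names a part of them. Genes named outside this rule, such as TXNRD3 and AKR1C1, are given beside the others of their lists. The members, the lists and these rules were chosen with earlier results of these data known. Promoter windows are from RefSeq.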

Additional observations from a re-analysis of the deposited data

Results flagged for a closer look

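For 6 of the 10 members the response to VE-822 differed between the lines by the test of the difference itself (edgeR, adjusted over 24958 genes), which is why they are listed. The values, 92.1 minus MP38 on the log2 scale, were -0.88 for TXNRD1, -0.82 for NFE2L2, -0.49 for TXN, -0.44 for GPX4, -0.33 for NQO1 and 0.59 for HMOX1. For TXNRD1, NFE2L2, TXN and GPX4 the responses of the single lines were called in opposite directions, at 0.58, 0.48, 0.33 and 0.23 in MP38 and -0.33, -0.37, -0.19 and -0.24 in 92.1. The 92.1 call was lost in 6 of 14 alternatives for TXNRD1, 5 for NFE2L2 and 8 for TXN, and held in all 14 for GPX4. Without 92.1 DMSO replicate 3 the differences were -0.80 for TXNRD1, -0.73 for NFE2L2, -0.59 for TXN, -0.47 for GPX4, -0.35 for NQO1 and 0.65 for HMOX1. The VE-822 dose was set for each line, so dose and line cannot be told apart in any of these values.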

How the results depend on the processing

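Over all members and comparisons, 532 alternative values kept their direction and their side of the threshold, 23 gained a call, 33 lost one and 29 changed sign. Of those that lost a call, 30 were in 92.1 with VE-822 and 3 between the untreated lines. The count of members called lower in MP38 was 1 and became 2 with library size only, with a minimum mean of 5 CPM and with both FPKM fits (1 to 2 when a library was left out). In 92.1 it was 5 and became 3 with library size only, 1 with the 5 CPM minimum and 1 with each FPKM fit (1 to 7 when a library was left out). Of all genes in 92.1, 2917 were called higher and 2805 lower with the 5 CPM minimum, 2757 and 2775 lower with the FPKM fits on +1 and +0.1, and 3343 to 6899 lower when a library was left out, 6899 being without DMSO replicate 3. Between the untreated lines 5013 were higher and 4937 lower with the 5 CPM minimum, which tests fewer genes. Members with a higher response in 92.1 became 2 with library size only, the 5 CPM minimum, both FPKM fits and without 92.1 DMSO replicate 3 (1 to 2 when a library was left out). Elsewhere the cause was not tested. Library size only moved the share of called genes that were higher in 92.1 from 50.9% to 61.7%, and that of the difference in response from 53.9% to 62.0%.

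Sign changes were as follows, none called except the last. In MP38, SRXN1 was 0.0023 with RLE factors and with DESeq2, and 0.0061, 0.0402, 0.0488 and 0.0246 without DMSO replicate 2, DMSO replicate 3, VE-822 replicate 1 and VE-822 replicate 2 (-0.0717 to 0.0488 over all left-out libraries). HMOX1 was -0.0093 with library size only, -0.0057 and -0.0059 with the FPKM fits, and -0.0486 and -0.0065 without DMSO replicate 3 and VE-822 replicate 3 (-0.0486 to 0.084). SLC7A11 was 0.0379, 0.0355 and 0.0361 without DMSO replicate 1, DMSO replicate 2 and VE-822 replicate 3 (-0.0983 to 0.0379). In 92.1, GCLM was 0.0285 with library size only, 0.0507 with the 5 CPM minimum and 0.0213 and 0.0286 with the FPKM fits, and GCLC 0.0018 with the 5 CPM minimum. Between the untreated lines, TXN was -0.0265 with library size only and -0.0274 and -0.0276 with the FPKM fits. In the difference in response, KEAP1 was 0.0403 with library size only, 0.0824 with the 5 CPM minimum and 0.0479 and 0.043 with the FPKM fits, and GCLM 0.008 with the 5 CPM minimum. Between the untreated lines, NFE2L2 was -0.1856 with library size only, -0.1367 with the 5 CPM minimum, -0.1843 and -0.1934 with the FPKM fits and -0.0812 without 92.1 DMSO replicate 3, where it was called (-0.0812 to 0.1074 over all left-out libraries). SRXN1 was below the 5 CPM minimum in 92.1 and in the joint fit, which gives no value there.

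For libraries with the same number the correlation of deviations was -0.153, -0.0715 and -0.239 in MP38 and 0.0745, 0.0676 and 0.0930 in 92.1. For different numbers it was -0.0962 to 0.192 in MP38 and -0.0938 to 0.0494 in 92.1. In 92.1 the same-number values thus lay above the others, and in MP38 they did not. With 3 centred libraries per group, these values cannot decide whether equal numbers mark a pair. With the replicate block the members called stayed at 5 higher and 1 lower in MP38, 1 and 5 in 92.1, 4 and 4 between untreated lines and 1 and 5 in the difference. Genes called with the block numbered 5494 higher and 5172 lower in MP38, 4429 and 4333 in 92.1, 8692 and 9219 between untreated lines, and 5315 and 4566 in the difference. In 92.1 the block ended the KEAP1 call and that of SLC7A11, and gave NQO1 one. SRXN1, at 257 to 397 counts per library, had the fewest counts of the members. Its changes with VE-822 were not called in either line, with an SE of about 0.1 on the log2 scale. Its difference between the untreated lines, -0.71 ± 0.112 SE, was called (adjusted p = 0.000292, edgeR).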

Other observations

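Beside the members, 3 genes of the wider network were near 0 in one line and well above 10 CPM in the other. GPX1, the cytosolic glutathione peroxidase, was at 165, 164 and 163 CPM in the DMSO libraries of MP38 and at 0.0383, 0.0630 and 0.217 CPM in those of 92.1. It was at 197, 209 and 230 CPM with VE-822 in MP38 and at 0.164, 0.171 and 0.136 CPM in 92.1. ME1, which makes NADPH from malate, was at 27.1, 25.1 and 26.8 CPM in MP38 DMSO, while in 92.1 DMSO it had counts in 1 library, at 0.0192 CPM. SOD3, the extracellular superoxide dismutase, had the opposite pattern, at 0.133, 0.0754 and 0.0875 CPM in MP38 DMSO and 34.7, 35.4 and 40.5 CPM in 92.1 DMSO. NNT was at 98.7 CPM in untreated MP38 and 662 CPM in untreated 92.1, and PRDX1 at 47.5 and 230 CPM. These genes were chosen after their values were seen.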
